A study of Mus musculus with 6 samples.

Results

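The enzymes that break down the aromatic amino acids tyrosine and tryptophan were followed in cultured mouse hepatocytes exposed to tumour necrosis factor alpha (TNFα). The 9 genes were Tat, Hpd, Hgd and Fah of tyrosine degradation and Tdo2, Afmid, Kmo, Kynu and Haao of tryptophan degradation. They were taken as every probe that the platform annotation maps to these symbols, which gave 18 of the 45281 probes on the array. A gene was tested when at least 1 of its probes exceeded the median of all probes on at least 2 arrays, as 16 of the 18 probes did, so 8 of the 9 genes were among the 13438 tested and Tat was not. The primary hepatocytes came from male C57Bl/6J mice whose age the labels do not give, and were plated on collagen. The groups were unstimulated cells, cells given 2 ng/mL recombinant murine TNFα for 2 hours, and cells given it for 2 days, with 2 arrays in each. All 3 groups shared a Williams' E medium with 5% fetal calf serum, 50 nM dexamethasone, which is a synthetic glucocorticoid, and 1 nM insulin. The labels do not tell whether the 2 arrays of each group stand for different animals or for repeats of 1 culture, so the p-values rest on array-to-array spread that could be technical alone. No time in culture is labelled for the unstimulated cells, so 2 days of TNFα and 2 days of culture cannot be told apart.

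Tyrosine is broken down mainly in the liver. Tyrosine aminotransferase (Tat) removes its amino group, 4-hydroxyphenylpyruvate dioxygenase (Hpd) turns the product into homogentisate, homogentisate dioxygenase (Hgd) opens the ring, and fumarylacetoacetate hydrolase (Fah) makes the last cut, to fumarate and acetoacetate. Inherited loss of Hgd causes alkaptonuria and loss of Fah causes hepatorenal tyrosinaemia. Tryptophan enters the kynurenine pathway through tryptophan dioxygenase (Tdo2) in hepatocytes. Formamidase (Afmid), kynurenine monooxygenase (Kmo), kynureninase (Kynu) and 3-hydroxyanthranilate dioxygenase (Haao) then carry it towards quinolinate, a precursor of NAD. Tat and Tdo2 are classical glucocorticoid-inducible genes of the liver.

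Replicate arrays had Pearson correlations across the tested genes of 0.995 to 0.996, against 0.982 to 0.991 for pairs of arrays from unlike groups, where genes are not independent replicates. All 12 hepatocyte markers passed the filter, though the Alb probe read only 145 to 174, near the median of all probes, and their summed intensity was 171718 to 182194 in untreated cells, 176757 to 180544 at 2 hours and 126245 to 127731 at 2 days. Of these 12, 5 were called lower at 2 days and 0 higher, beside 5.92% and 6.74% of all genes tested. Intensities below are the authors' deposited linear values, which still hold background, so changes of dim probes are understated. Changes are given on the log2 scale with their standard error (SE) from a limma fit over all 13438 genes, and a gene was called where the p adjusted by Benjamini-Hochberg was under 0.05.

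After 2 days of TNFα, Hpd, Hgd and Fah fell, and none of the 5 tested kynurenine pathway genes was called in either direction. Of these 5, Tdo2, Kmo and Haao read near the median of all probes, where a fall could be missed. By limma 3 of the 8 tested genes were called lower and 0 higher, where 5.92% of all genes tested were called lower, 6.74% higher and 12.7% in either direction. Treated and untreated arrays were fully separated for these 3 genes, as they were for 49.6% of all genes. The median change of the 8 genes was -0.15 at 2 days, beside 0.01 over all genes. After 2 hours 0 of the 8 were called by limma, where 1.76% of all genes were called higher, 1.06% lower and 2.82% in either direction. Afmid alone of the 8 had an unadjusted p under 0.05. The share of all genes with such a p was not taken, so counts by unadjusted p have nothing to be read against. The median change at 2 hours was -0.04 for the 8 genes and -0.01 for all genes.

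By the brightest probe of each gene, Hgd, the ring-opening step, fell the most of the 8; with a gene's probes averaged its change was -1.11, beside -1.12 for Hpd. Its brighter probe (ILMN_1212739) read 1179 and 1047 on the untreated arrays, 946.8 and 969.2 at 2 hours, and 280.8 and 325.7 at 2 days. The 2 day arrays lay far below the other 4, and the 2 hour arrays lay below the untreated ones without reaching a call. The mean went from 1113 ± 93.4 to 303.2 ± 31.7 at 2 days (SD, n = 2 each), a log2 change of -1.88 (SE 0.11, limma adjusted p = 1.29e-12), so that 27.2% of the untreated level was left. Hgd ranked 18 from the lowest change among the 13438 genes. At 2 hours its change was -0.21 (SE 0.11, limma adjusted p = 0.436). In these RNA pools, fewer hepatocytes and less RNA per hepatocyte cannot be told apart.

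Hpd, the step before it, showed the same order of groups. The arrays read 411.0 and 357.3 in untreated cells, 328.5 and 379.2 at 2 hours, and 185.7 and 167.2 at 2 days on its single probe (ILMN_2731444). The untreated and 2 hour arrays overlapped, and both 2 day arrays lay below all others. The fall at 2 days was 1.12 on the log2 scale (SE 0.11, limma adjusted p = 2.52e-08), or 46.0% of the untreated level. After normexp, an alternative that models and removes background, its change was -1.78. Hpd ranked 71 from the lowest change.

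Fah, the last enzyme of the route, fell at 2 days from a higher intensity. Its single probe (ILMN_2614494) read 11366 and 8276 in untreated cells, 10752 and 11676 at 2 hours, and 5531 and 4882 at 2 days. The untreated arrays differed from each other more than the arrays of either TNFα group did (9821 ± 2185, SD, n = 2), and the 2 hour arrays lay within or just above their range. All 4 of these arrays lay above both 2 day arrays. The fall was 0.90 on the log2 scale (SE 0.12, limma adjusted p = 5.83e-06), or 53.6% of the untreated level, with rank 113 from the lowest. The change at 2 hours was 0.21 (SE 0.12, limma adjusted p = 0.563), and leaving out untreated replicate 2 turned it to -0.02.

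**Figure D1:**
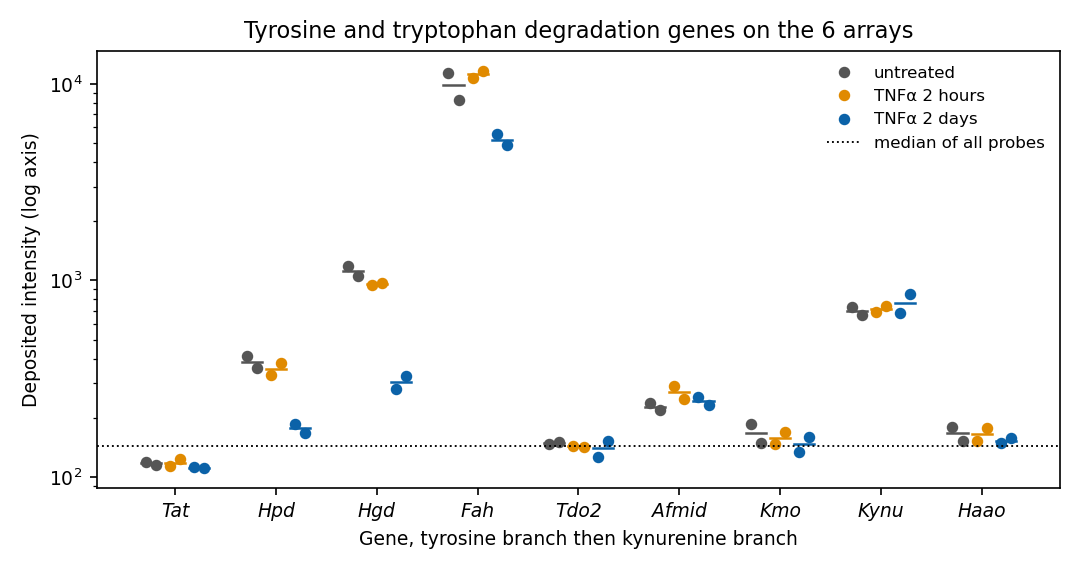
Deposited intensity (log axis) of the brightest probe of each of the 9 genes on the 6 arrays, in pathway order. Points are arrays, short lines are group means (n = 2), and the dotted line is the median of all probes. The 2 day points of Hpd, Hgd and Fah lie below those of both other groups, while the groups of Kmo, Kynu and Haao overlap.

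The comparison of 2 days with 2 hours, which does not use the untreated arrays, gave the same 3 genes. The log2 change between the times was -1.002 for Hpd, -1.66 for Hgd and -1.11 for Fah (SE 0.11, 0.11 and 0.12, limma adjusted p = 1.58e-07, 1.42e-11 and 2.03e-07). Of all genes, 6.67% were called lower, 8.63% higher and 15.3% in either direction here, and the arrays of 52.8% did not overlap. The median change of the 8 genes was -0.13, beside 0.01 over all genes. This comparison and that of 2 days with untreated cells share the 2 day arrays and the estimate of spread.

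**Figure D2:**
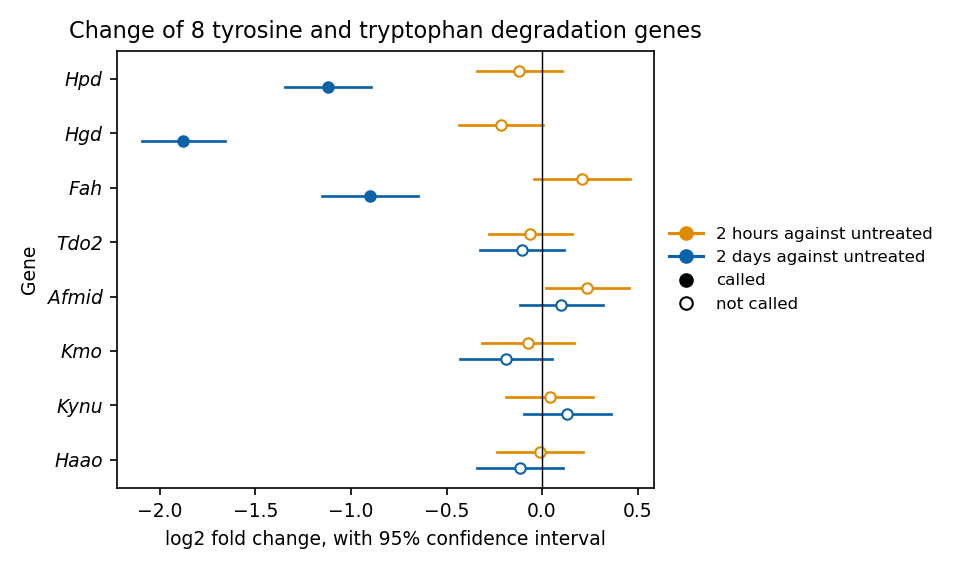
Log2 change of the 8 tested genes (rows, in pathway order) against untreated cells after 2 hours and 2 days of TNFα, with 95% confidence intervals from the limma fit; filled points are called at an adjusted p under 0.05. The 2 day intervals of Hpd, Hgd and Fah lie wholly below 0, and no gene is called at 2 hours.

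Log2 ratios of 2 genes within an array were compared for the 5 genes whose probe stood above the 75th percentile of all probes on average (Hpd, Hgd, Fah, Kynu and Afmid, 10 pairs). The ratio of Hgd to Fah was -3.27 and -2.98 in untreated cells and -4.30 and -3.91 at 2 days, a change of -0.98. The ratio of Hpd to Hgd changed by 0.76, from -1.52 and -1.55 to -0.60 and -0.96, and that of Hpd to Fah by -0.22. These sizes depended on the processing: after normexp the 3 changes were -1.36, 0.49 and -0.87, and with a gene's probes averaged they were -0.21, -0.014 and -0.22, so the order of Hpd and Hgd turned. Relative to Kynu of the other branch, Hpd changed by -1.25, Hgd by -2.01 and Fah by -1.03, and relative to Afmid by -1.22, -1.98 and -1.001. Groups did not overlap for 9 of the 10 ratios at 2 days, but also for 8 of the 10 at 2 hours, and the exact two-sided permutation p of 0.333 for each of the 9 (0.370 after adjustment over the 10) is the smallest that 2 arrays against 2 allow.

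**Figure D3:**
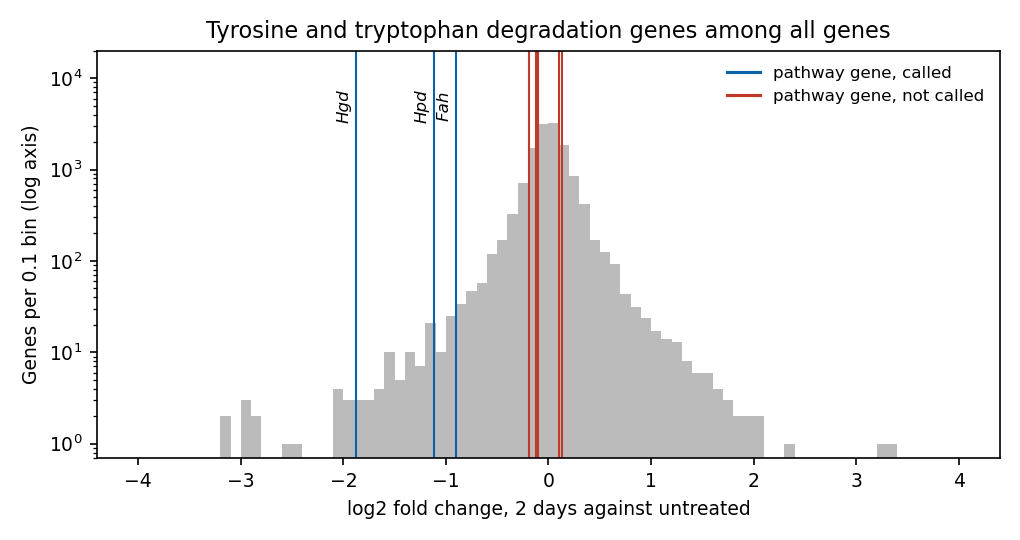
Histogram of the log2 fold change at 2 days for all 13438 genes tested (bins of 0.1, log axis for the number of genes), with a vertical line for each of the 8 genes. Hgd, Hpd and Fah lie in the left tail at -1.88, -1.12 and -0.90, and the 5 kynurenine pathway genes lie between -0.19 and 0.13.

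The sequence just before the start of each of the 3 falling genes is shown so that they can be read side by side. Each line holds the 250 bases before the gene's start in the RefSeq promoter table (build GRCm38.p6), 5′ to 3′ on the gene's own strand, and capitals mark matches to the 7 motifs searched.
Hpd, chr5:123182724-123182973, minus strand: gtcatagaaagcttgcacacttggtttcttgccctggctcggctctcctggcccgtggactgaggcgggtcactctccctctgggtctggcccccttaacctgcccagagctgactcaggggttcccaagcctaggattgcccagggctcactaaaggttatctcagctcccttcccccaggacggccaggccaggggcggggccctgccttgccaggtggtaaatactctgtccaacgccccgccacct
Hgd, chr16:37579903-37580152, plus strand: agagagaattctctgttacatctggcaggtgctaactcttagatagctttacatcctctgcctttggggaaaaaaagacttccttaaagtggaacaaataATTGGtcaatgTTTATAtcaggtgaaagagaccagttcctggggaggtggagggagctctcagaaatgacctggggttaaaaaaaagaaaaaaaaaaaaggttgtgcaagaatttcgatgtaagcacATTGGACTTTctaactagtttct
Fah, chr7:84605943-84606192, minus strand: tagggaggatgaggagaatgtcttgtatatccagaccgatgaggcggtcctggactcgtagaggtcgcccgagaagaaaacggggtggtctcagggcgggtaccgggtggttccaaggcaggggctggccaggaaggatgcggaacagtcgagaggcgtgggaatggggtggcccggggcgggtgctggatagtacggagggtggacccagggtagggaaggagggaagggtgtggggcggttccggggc

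The motifs were the glucocorticoid receptor motif TGTTCT, the forkhead motif TGTTTAC, the HNF4 motif AAAGTCC, the HNF1 motif GTTAAT, the NF-κB motif, GGGA and CC with any 4 bases between them, TATAAA and CCAAT, each searched on both strands. The Hpd and Fah windows held none of them. The Hgd window held AAAGTCC and, overlapping it, 1 of 2 CCAAT matches, and also TATAAA, all on the reverse strand. Of the 32851 windows of this length in the table, 3.58% held AAAGTCC, 33.8% CCAAT and 12.4% TATAAA. The glucocorticoid receptor motif and the NF-κB motif stood in 16.1% and 17.6% of all windows and in none of these 3. The GC content was 62.8% for Hpd and 64.4% for Fah but 38.8% for Hgd, and the 3 windows share no searched motif. The start that the table uses for Hgd lies 411 bases inside the outermost start of the gene record. All of its window, with the matches, therefore lies within the record and may be transcribed. Such matches describe letters and do not show binding.

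The first step of the tyrosine route could not be followed. The single probe of Tat (ILMN_1260050) read 119.7 and 115.6 in untreated cells, 113.1 and 123.3 at 2 hours and 111.7 and 111.1 at 2 days. It stood on average at the 3.84th percentile of all probes, where the lowest intensity on the arrays was 96.5. The untreated and 2 hour arrays overlapped, and the 2 day arrays lay just below both. Fitted with every probe of the array, its change was -0.08 at 2 days (SE 0.09, limma adjusted p = 0.831). No change in Tat mRNA was detectable on this probe.

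The first step of the tryptophan route was read near the median of all probes. The Tdo2 probe (ILMN_2674643) read 147.8 and 150.9 in untreated cells, 143.6 and 142.8 at 2 hours, and 126.2 and 153.1 at 2 days, with the median of all probes at 143.2. The 2 day arrays enclosed the values of all others. The change at 2 days was -0.10, with a 95% interval of -0.32 to 0.11, and leaving out replicate 1 of the 2 day group turned it to 0.04.

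Afmid, the second step, had 7 probes, all of which passed. Its brightest (ILMN_2827607) read 236.6 and 219.0 in untreated cells, 289.5 and 248.8 at 2 hours, and 255.2 and 233.5 at 2 days. Both 2 hour arrays lay above both untreated arrays, but the change of 0.24 was not called (SE 0.11, limma adjusted p = 0.352). The groups did not overlap for 3 of the 8 tested genes at 2 hours (Hgd, Tdo2 and Afmid), where 40.4% of all genes did not. The 6 other probes of Afmid gave -0.15 to 0.18 at 2 hours and -0.03 to 0.10 at 2 days, and none was called.

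Kmo, which hydroxylates kynurenine, read 186.3 and 148.5 in untreated cells, 147.9 and 168.6 at 2 hours, and 134.0 and 158.8 at 2 days. All 3 groups overlapped. The change at 2 days was -0.19 (95% interval -0.43 to 0.05, limma adjusted p = 0.378), and -0.46 after normexp without a call. Haao, which opens the ring of 3-hydroxyanthranilate, read 180.0 and 153.0, then 152.0 and 178.0, then 149.0 and 156.9 in the same order, and its change at 2 days was -0.12 (95% interval -0.34 to 0.11). Its 2 other probes gave 0.04 and -0.07. Kmo and Haao were both near the median of all probes.

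Kynu, the kynurenine-cleaving enzyme, had the highest mean percentile of the 5 kynurenine pathway genes, 90.01 among all probes. It read 728.6 and 664.1 in untreated cells, 687.7 and 744.0 at 2 hours, and 683.9 and 850.6 at 2 days (ILMN_1214750). The groups overlapped throughout. The change was 0.04 at 2 hours (95% interval -0.19 to 0.27) and 0.13 at 2 days (95% interval -0.10 to 0.36, limma adjusted p = 0.554). The lower bound at 2 days is well short of the falls of Hpd, Hgd and Fah. Without replicate 2 of the 2 day group its change was -0.02.

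**Figure D4:**
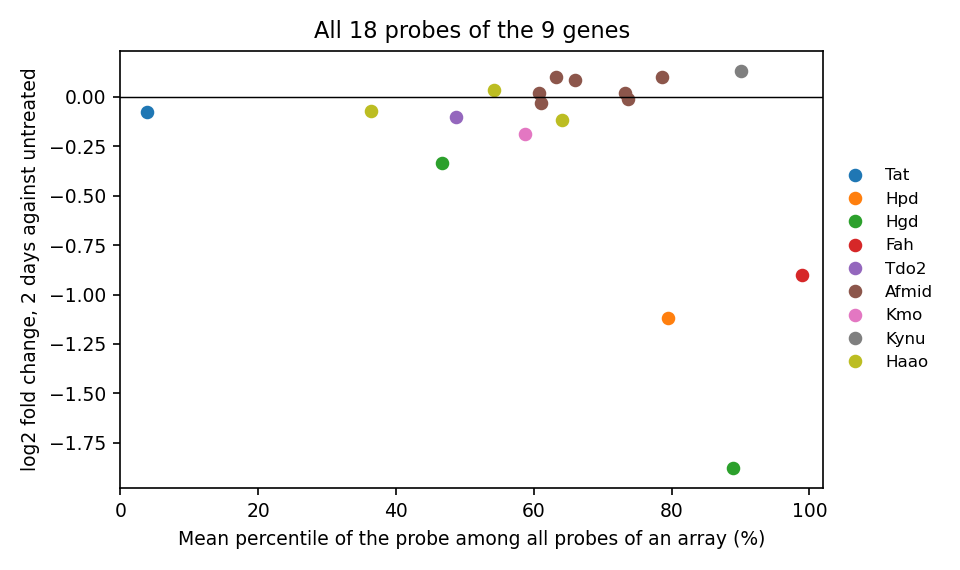
Log2 fold change at 2 days against untreated cells for all 18 probes of the 9 genes, plotted over the probe's mean percentile among all probes of an array. The probes of Fah, Hpd and the brighter Hgd probe lie far below 0, at percentiles of 99.0, 79.5 and 88.8; the dimmer Hgd probe lies at -0.34 and all other probes between -0.19 and 0.13.

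Probes of 1 gene disagreed for Hgd. Its dimmer probe (ILMN_2562861) read 157.0 and 180.8 in untreated cells, 131.4 and 145.7 at 2 hours, and 122.2 and 145.9 at 2 days, at the 46.7th percentile on average. It gave -0.34 at 2 days (SE 0.10, limma adjusted p = 0.0587 over all probes), which was not called. The mean of both Hgd probes still fell, by 1.11. Over all 18 probes 3 were called lower at 2 days and 0 higher, where 2.73% of all probes were called lower and 2.92% higher, and at 2 hours 0 were called by limma, where 1.13% of all probes were.

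Other genes of these routes were taken from lists chosen for their place in the pathway, with earlier results of these data known. In phenylalanine and tyrosine degradation with its tetrahydrobiopterin cofactor, 3 of 11 tested genes were lower at 2 days and 0 higher. Over all genes 5.92% were called lower and 6.74% higher. The median change of the 11 was -0.15. Gstz1, the maleylacetoacetate isomerase that acts between Hgd and Fah, read 3739 and 3060 in untreated cells, 2897 and 3457 at 2 hours, and 1757 and 2027 at 2 days. It fell by 0.84 on the log2 scale (SE 0.12, limma adjusted p = 7.68e-06). The steps Hpd, Hgd, Gstz1 and Fah, which follow each other directly, were thus all lower at 2 days. Qdpr, which regenerates tetrahydrobiopterin, fell by 0.52 and Gchfr, the feedback regulator of its synthesis, by 0.57, and after normexp neither was called, at -0.58 and -0.96.

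At 2 hours 1 of these 11 genes was called higher, where 1.76% of all genes were. It was Gch1, the first enzyme of tetrahydrobiopterin synthesis, named after its values were seen. It read 5526 and 6599 in untreated cells, 8529 and 7603 at 2 hours, and 6414 and 5486 at 2 days. The rise was 0.42 (SE 0.11, limma adjusted p = 0.0409), and at 2 days its change was -0.03. The call was lost in 7 of 19 alternatives: without untreated replicate 1 (0.29), without replicate 1 (0.33) or replicate 2 (0.50) of the 2 hour group, after normexp (0.42), with probes averaged (0.32), and with no filter or each probe tested on its own (0.42 in both). Its other probe gave 0.23, which was not called.

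Among other tryptophan and kynurenine genes, 5 of 9 tested were lower at 2 days and 0 higher, beside 5.92% and 6.74% of all genes. The median change of the 9 was -0.36. Aldh8a1, the dehydrogenase of 2-aminomuconic semialdehyde, read 686.9 and 507.4 in untreated cells, 467.2 and 521.4 at 2 hours, and 189.8 and 210.5 at 2 days. It fell by 1.56 (SE 0.12, limma adjusted p = 4.36e-10), or 2.20 after normexp, and its other passing probe by 0.44. Acmsd, which acts just before it and draws the pathway away from NAD, read 425.2 and 405.5 in untreated cells, 455.2 and 496.1 at 2 hours, and 212.7 and 221.1 at 2 days. It fell by 0.94 (SE 0.10, limma adjusted p = 1.39e-07). In both genes the 2 day arrays lay below all 4 others.

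The branch enzymes fell as well. Ddc, the decarboxylase of aromatic amino acids, fell by 1.23 (SE 0.10, limma adjusted p = 2.01e-09), from 4168 and 4094 to 1845 and 1673, and its other passing probes gave -1.45, a call, and -0.28, no call. Kyat1, which makes kynurenic acid, fell by 1.11 (SE 0.12, limma adjusted p = 9.91e-08), from 1328 and 1384 to 558.7 and 709.5, and by 1.19 on its other passing probe. Kyat3, with the same activity, gave -0.12 and was not called against untreated cells. Gcdh, the glutaryl-CoA dehydrogenase further down, fell by 0.36, a call lost without untreated replicate 1 (-0.31), without replicate 1 of the 2 day group (-0.20), after normexp (-0.40) and with a gene's probes averaged (-0.36). The inducible dioxygenases Ido1 and Ido2 gave 0.19 and -0.07 at 2 days from intensities between 119.7 and 161.7, near background. At 2 hours limma called 0 of the 9, and 3 had an unadjusted p below 0.05, with no share over all genes to set beside that count.

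NAD synthesis genes had 3 of 6 lower at 2 days and 0 higher, beside 5.92% and 6.74% of all genes, with a median of -0.22. Naprt, the enzyme that starts NAD synthesis from nicotinate, fell by 0.52 (SE 0.10, limma adjusted p = 0.000735). Qprt, which uses the quinolinate made after Haao, fell by 0.46, a call lost without replicate 1 of the 2 day group (-0.28). Nadsyn1, the NAD synthetase, fell by 0.35, a call lost without untreated replicate 1 (-0.28), replicate 1 (-0.32) or replicate 2 (-0.37) of the 2 day group. It was also lost with its 3 probes averaged (-0.19), as the 2 others gave -0.07 and -0.15 without a call. After normexp none of Naprt, Qprt and Nadsyn1 was called, at -0.56, -0.52 and -0.64. Of 5 transporters of aromatic amino acids tested, limma called 0 at either time. None had an unadjusted p below 0.05, again with no share over all genes beside it.

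**Figure D5:**
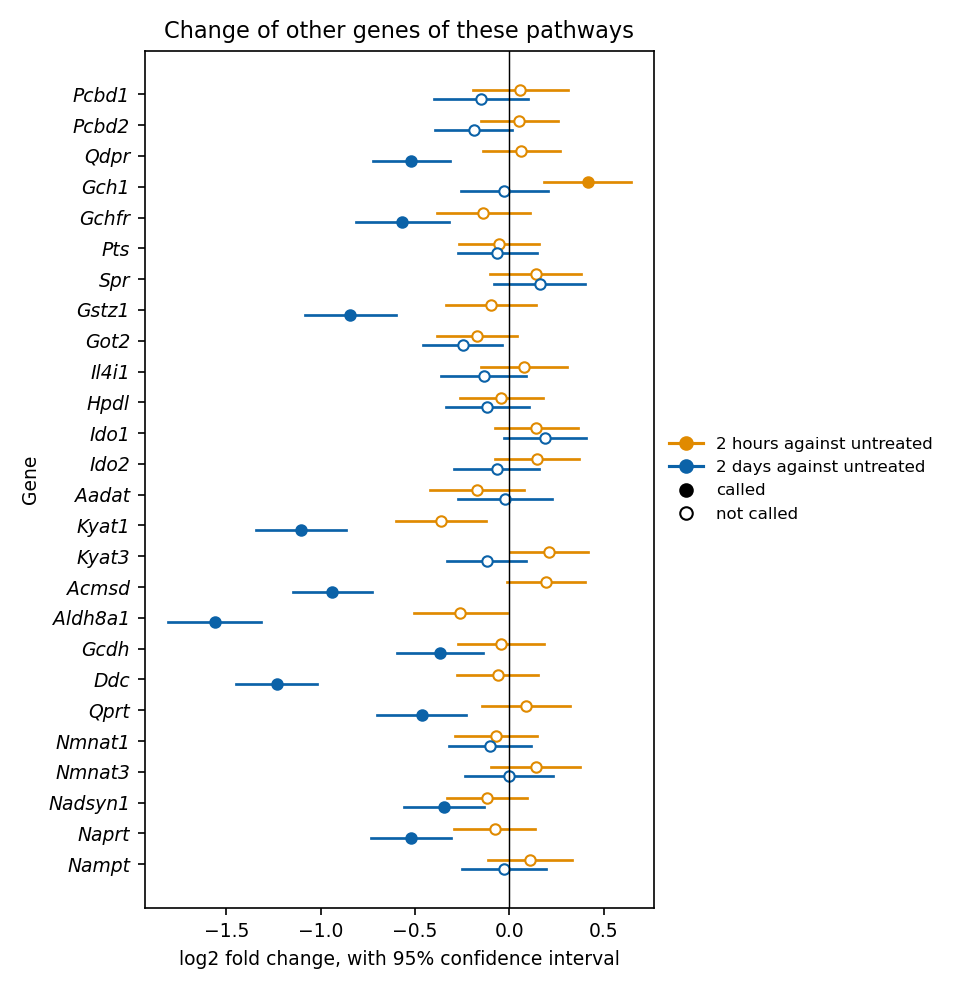
Log2 fold change against untreated cells after 2 hours and 2 days for the 26 tested genes of phenylalanine, tyrosine, tryptophan and NAD metabolism outside the 9 (rows), with 95% confidence intervals from the limma fit; filled points are called. At 2 days 11 genes are called, all lower, from -1.56 (Aldh8a1) to -0.35 (Nadsyn1), and at 2 hours Gch1 alone is called.

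The genes most like each falling enzyme were found as the smallest Euclidean distance over the 6 arrays, after subtracting each gene's untreated mean. For Hpd these were the alanine aminotransferase Gpt (distance 0.17), the growth factor Vegfa (0.21) and the acyl-CoA synthetase Slc27a2 (0.23), with changes of -1.09, -1.10 and -1.10 at 2 days. For Hgd they were Slc25a47, a mitochondrial carrier (0.27), Acnat2, an acyltransferase (0.27), and the prostaglandin dehydrogenase Hpgd (0.28), with -1.72, -2.03 and -1.92. For Fah they were the interleukin receptor Il17rb (0.22), Serpina3n (0.24) and Nrg4 (0.26), with -0.88, -0.79 and -0.91. With clone and locus names passed over, 63 genes lay within 0.5 of Hpd, 11 of Hgd and 45 of Fah. For the other 5 tested genes between 5659 and 9177 genes did, so a nearest gene says little there. The nearest were Ptprb, Mocs3 and Gpr50 to Tdo2, Prelid3a, Ehf and Rhog to Afmid, Parp4, Exosc2 and Slc30a5 to Kmo, Rbm43, Slc4a1ap and Srcin1 to Kynu, and Efr3a, Prps1l3 and Elavl1 to Haao.

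Markers of other cell types also moved by 2 days, and Cd14, Sox9 and Reln were already called higher at 2 hours. Of 12 tested macrophage markers 6 were higher at 2 days and 0 lower, beside 6.74% and 5.92% of all genes. The summed intensity of the 12 was 2542 to 2723 in untreated cells, 2902 to 2954 at 2 hours and 3675 to 3889 at 2 days. Cd14 rose by 1.06 (0.60 at 2 hours) and C1qb by 0.75. The macrophage-defining Adgre1 (-0.04) and Csf1r (0.08) read 130 to 161 and 143 to 174, near the median of all probes, and were not called. Neither were Lyz2 (-0.09), Timd4 (-0.14), Vsig4 (0.08) and Marco (0.30). C1qa (0.36) and Cd163 (0.31, limma adjusted p = 0.0499) were called higher from untreated readings of 146.1 to 154.7 and 152.2 to 160.2. Marco, at 144.7 and 173.1 in untreated cells, had a change of like size without a call. Clec4f and Cd5l had no passing probe. Of 4 tested bile duct markers 1 was higher, Sox9 (1.78, and 0.79 at 2 hours), with a summed intensity of 1364 to 1380 in untreated cells, 1955 to 1987 at 2 hours and 3335 to 3586 at 2 days. Of 5 tested stellate cell markers Acta2 was higher (0.67) and Reln lower (-0.82) at 2 days, while Reln was higher at 2 hours (0.43). The stellate sums were 2150 to 2625, 2194 to 2418 and 2798 to 3553. The macrophage, bile duct and stellate sums each rose mostly through 1 bright gene. Mean untreated and 2 day readings were 680.4 and 1408 for Cd14, 847.2 and 2912 for Sox9, and 1578 and 2507 for Acta2. Of 8 tested endothelial markers 1 was higher and 1 lower, with sums of 1598 to 1715, 1662 to 1816 and 1581 to 1657, and 1 of 8 lymphocyte and neutrophil markers passed the filter and was not called. Hepatocyte markers included Asgr1 (-1.60) and Cyp3a11 (-2.97) among those lower and Trf (-0.14) and Apob (-0.01) among those not called. The part of these shifts in the falls of Hpd, Hgd and Fah was not tested.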

How the data were processed

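RNA of the 6 hepatocyte samples was labelled as biotinylated cRNA and hybridised to single-colour Illumina arrays, per the labels' protocols. The deposited table holds 1 linear intensity per probe and array for 45281 probes. All 6 columns share 1 distribution (lowest 96.5, highest 47615, medians 143.16 to 143.22), as after quantile normalization, a step no label names; the software was not given in the sources used, and the lowest value lies well above 0, so background is included. Gene symbols came from the platform annotation, with 34885 mapped to 1 symbol, 18 to several and 10378 not listed, and symbols updated with a RefSeq table of GRCm38.p6.

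No scaling was added before taking log2. Probes above the array's 50th percentile on at least 2 arrays were kept, and the probe of highest mean represented a gene. The 6 arrays entered 1 limma model with 3 group means (limma 3.58.1, R 4.3.3; empirical Bayes, 3 residual and 21.22 prior degrees of freedom, so the spread was mostly that shared over genes). Every probe was also fitted without a filter. The genes and lists were chosen with earlier results of these data known. Named genes were the 9, called genes of the pathway lists (at most 12 by change at 2 days) and the 3 nearest to each tested gene, passing over clone names. The fit was run on simulated data with independent normal noise of the spread that limma itself had estimated. Such data cannot show how the fit treats technical repeats, correlated genes or background. Alternatives were other scalings, background corrections, filters, probe rules, variances, thresholds, a replicate block and leaving out each array; ratio changes under normexp and averaged probes were added after the data were seen. The number of arrays limits the precision. Promoter windows came from RefSeq, for 8 of the 9 genes.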

Additional observations from a re-analysis of the deposited data

Results flagged for a closer look

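Levels differed by the limma test of 2 days against 2 hours for 15 genes of these pathways, in each case with the lower level at 2 days. They were 3 of the 8 tested genes, 4 of 11 other tyrosine and cofactor genes and 6 of 9 other tryptophan genes. The rest were 2 of 6 NAD synthesis genes, and 0 of 5 transporters were called. Over all genes tested 6.67% were called lower and 8.63% higher. Length of TNFα exposure and time in culture cannot be told apart here. Cell type markers and nearest genes are not counted. The log2 changes between the times were -1.002 for Hpd, -1.66 for Hgd and -1.11 for Fah. In the other tyrosine and cofactor genes they were -0.75 for Gstz1, -0.58 for Qdpr, -0.44 for Gch1 and -0.43 for Gchfr. In the other tryptophan genes they were -1.30 for Aldh8a1, -1.17 for Ddc, -1.13 for Acmsd, -0.75 for Kyat1, -0.33 for Kyat3 and -0.32 for Gcdh, and in NAD synthesis -0.55 for Qprt and -0.44 for Naprt. After normexp Gch1, Gchfr, Kyat3, Gcdh, Qprt and Naprt were not called, at -0.45, -0.74, -0.39, -0.36, -0.62 and -0.48. With probes averaged Gchfr (-0.27), Kyat3 (-0.25) and Gcdh (-0.32) were not called. They were also lost for Gch1 without replicate 1 of the 2 hour group (-0.36) or replicate 2 of the 2 day group (-0.33), for Gchfr without replicate 2 of the 2 hour group (-0.23) or replicate 1 of the 2 day group (-0.36), and for Qprt without replicate 1 of the 2 day group (-0.37). Kyat3 lost its call without replicate 2 of the 2 hour group (-0.24) and without replicate 1 (-0.36) or replicate 2 (-0.30) of the 2 day group. Gcdh lost it without replicate 1 (-0.34) or replicate 2 (-0.31) of the 2 hour group or replicate 1 of the 2 day group (-0.15), and, at an unmoved -0.32, with no filter, each probe on its own, trended variance or the replicate block, in all in 9 of 19 alternatives. Naprt lost it without replicate 2 of the 2 hour group (-0.40) or replicate 1 of the 2 day group (-0.35).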

How the results depend on the processing

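Under every alternative run, the same 3 of the 9 genes were called lower at 2 days against both other groups and 0 were called at 2 hours. Over these settings the change at 2 days lay between -1.78 and -1.02 for Hpd, -2.27 and -1.11 for Hgd, and -1.13 and -0.67 for Fah. With a filter at the 70th percentile 6 of the 9 genes were tested, and Tdo2 and Kmo gave no value; with no filter all 9 were. Replicate numbers did not pair the arrays (correlations of same-numbered deviations -0.15, -0.08 and 0.04), and with a replicate block 0, 3 and 3 of the genes were called in the 3 comparisons, with the Gcdh call between the times lost (-0.32). Crossing the numbers of untreated and 2 hour arrays, chosen after seeing the data, gave 618 called genes in all, 0 of them among the 9. Over all genes the fit called 379, 1701 and 2056 at 2 hours, 2 days and between the times; normexp gave 95, 654 and 810, a threshold of 0.01 gave 229, 1075 and 1330, and averaging a gene's probes gave 250 at 2 hours. Without replicate 1 or 2 of the 2 hour group 209 and 187 were called at 2 hours, and without its replicate 2 1270 between the times. Aldh8a1 was called at 2 hours without untreated replicate 2 (-0.48).

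Changes that were not called turned sign for some genes when 1 array was left out, and their lowest and highest values over these fits follow. At 2 hours they were Fah -0.0206 to 0.437, Kmo -0.238 to 0.0891, Kynu -0.0266 to 0.107, Haao -0.13 to 0.105, Gchfr -0.333 to 0.0585, Gstz1 -0.241 to 0.0485, Gcdh -0.0958 to 0.0127 and Ddc -0.153 to 0.0306. At 2 days they were Tdo2 -0.244 to 0.0354, Kynu -0.0244 to 0.29 and Gch1 -0.154 to 0.102. Between the times they were Tdo2 -0.182 to 0.0967, Kmo -0.237 to 0.00772, Kynu -0.0646 to 0.25 and Haao -0.219 to 0.00853. With a gene's probes averaged, 3 turned sign at 2 hours, to Haao 0.0435, Naprt 0.083 and Vegfa 0.0113.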
